A study of Mus musculus with 36 samples.

Results

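The genes described here are protein-coding genes within 5 Mb of Nos1 on mouse chromosome 5. They were chosen by position, less some left out by name, with earlier results of these data known. Each overlaps chr5:112781032-122958840 in the GENCODE annotation of mm10. The window holds 150 coding genes. Nos1 itself, 4 other named genes and all symbols beginning with Oas, Rpl, Rps, Cox or P2rx, which made 20 genes in all, were left out by rule. This left 130 of the 54232 gene identifiers in the count files. Counts were high enough to test 92 of these 130 genes, and 38 were not tested. Nos1 encodes the neuronal nitric oxide synthase, an enzyme that makes nitric oxide from arginine. Macrophages are better known for the inducible enzyme, Nos2, which inflammatory stimuli switch on. The neighbours of Nos1 have no common function: they include metabolic enzymes, DNA repair proteins, ubiquitin ligases, kinases, cytoskeletal proteins and receptors. Genes that lie close together on a chromosome are usually inherited together.

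The study compared mouse bone marrow-derived macrophages (BMDM) labelled NOS1 KO with BMDM labelled WT, without stimulus (control) and after 2 h or 8 h of lipopolysaccharide (LPS), the bacterial cell wall component that activates Toll-like receptor signalling. M-CSF, the growth factor that turns marrow cells into macrophages, was present at 20 ng/mL over 5 days of culture, and LPS at 100 ng/mL. The KO-labelled groups were control, LPS 2h and LPS 8h, with 6 libraries each, and the WT-labelled groups were control, LPS 2h and LPS 8h, also with 6 libraries each. In the last library of each group in accession order, replicate 6, the genotype label reads BMDM NOS1 KO or BMDM WT. In the others it reads NOS1 KO or WT. The strain of the wild type is spelled C65BL6 in the series text. The labels give no age or sex of the mice, do not describe how the knockout was made or bred, and do not say which libraries came from separate animals or cultures. The p-values therefore stand for the spread among the libraries, part of which may be technical. In bulk libraries, fewer cells of a kind and less RNA per cell cannot be told apart.

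The 36 libraries held between 8953489 and 18482551 counts, of which 46769 to 116864 fell on the 130 genes. Levels are given as CPM, counts scaled by library size and TMM factors. Summed CPM of 7 macrophage markers lay between 1.323e+04 and 1.97e+04 in KO-labelled libraries and between 1.232e+04 and 2.106e+04 in WT-labelled libraries, with all 7 detected in every group. Nos1 went against its label: it averaged 4.17 ± 1.04 CPM in KO-labelled control libraries and 0.0650 ± 0.0988 CPM in WT-labelled control libraries (SD, n = 6 each). At 8 h it averaged 1.63 ± 0.404 CPM in the KO label, against 0.158 ± 0.344 CPM in the WT label. The genotype is therefore named by its label throughout. Whether the labels are exchanged was not tested, and an exchange would turn the sign of every KO against WT value given here. The counts also split the libraries into sets A and B of 18 libraries each, 3 per group, on a component holding 34.6% of the variance within groups, and no label names this split. In accession order, replicates 1, 2 and 6 of each group formed set A and replicates 3, 4 and 5 set B. Skeletal muscle markers summed to over 100 CPM in 4 WT-labelled libraries, all of them treated with LPS, and to at most 70.4 CPM in the others. Xist stood at 370.3 to 534.3 CPM in 3 WT-labelled libraries, replicate 1 of each treatment and all in set A, and at no more than 0.0983 CPM in the others.

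No gene of the window passed the test between the genotype labels within a single treatment, where the counts called were 0 of 92 in control libraries, 0 at 2 h and 0 at 8 h. A gene is called when edgeR's quasi-likelihood test, adjusted by Benjamini-Hochberg over all 12957 genes tested, gives p below 0.05. Of all genes tested, 0.123% were called in control libraries, 0.0232% at 2 h and 0.100% at 8 h. DESeq2 and limma-voom likewise called 0 of 92 in each treatment. At an unadjusted p below 0.05, edgeR gave 7 genes in control libraries, 10 at 2 h and 10 at 8 h, or 7.61%, 10.9% and 10.9% of the 92, beside 3.0%, 3.10% and 9.28% of all genes tested. With the library set as a term in the fit, 2 genes were called in control libraries and 2 at 2 h, Coq5 and Gltp each time, and 4 at 8 h, which were these and Cmklr1 and 2210016L21Rik, beside 0.154%, 0.0695% and 1.08% of all genes tested.

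Averaged over the 3 treatments, 5 of the 92 genes were called between KO and WT labels, or 5.43%, beside 0.602% of all genes tested. The KO-labelled libraries were higher in Acacb, Coq5 and Pxn and lower in Gltp and Pebp1. In this direction split, 0.494% of all genes were called higher and 0.108% lower. The median absolute log2 fold change was 0.07 over the 92 genes and 0.08 over all genes tested. Leaving out each library in turn gave 2 to 7 called genes. Acacb and Coq5 were called in all 36 refits, while Gltp lost its call in 2, Pxn in 13 and Pebp1 in 16. The count was 2 without KO-labelled control replicate 5, and 7 without WT-labelled LPS 2h replicate 1. It was 3 without each of KO-labelled control replicate 3, LPS 2h replicate 5 and LPS 8h replicate 3, and without each of WT-labelled control replicates 3 and 4, LPS 2h replicates 3, 4 and 5 and LPS 8h replicates 3, 4 and 5. Without the 4 libraries with muscle markers it was 2, Acacb and Coq5, beside 31 of all genes. Libraries of different treatments may share a culture, in which case the p-values of this average are too small. The rule on low counts did not turn on 1 label for these 5 genes, except in part for Acacb, which passed the count minimum in 18 KO-labelled and 8 WT-labelled libraries.

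**Figure D1:**
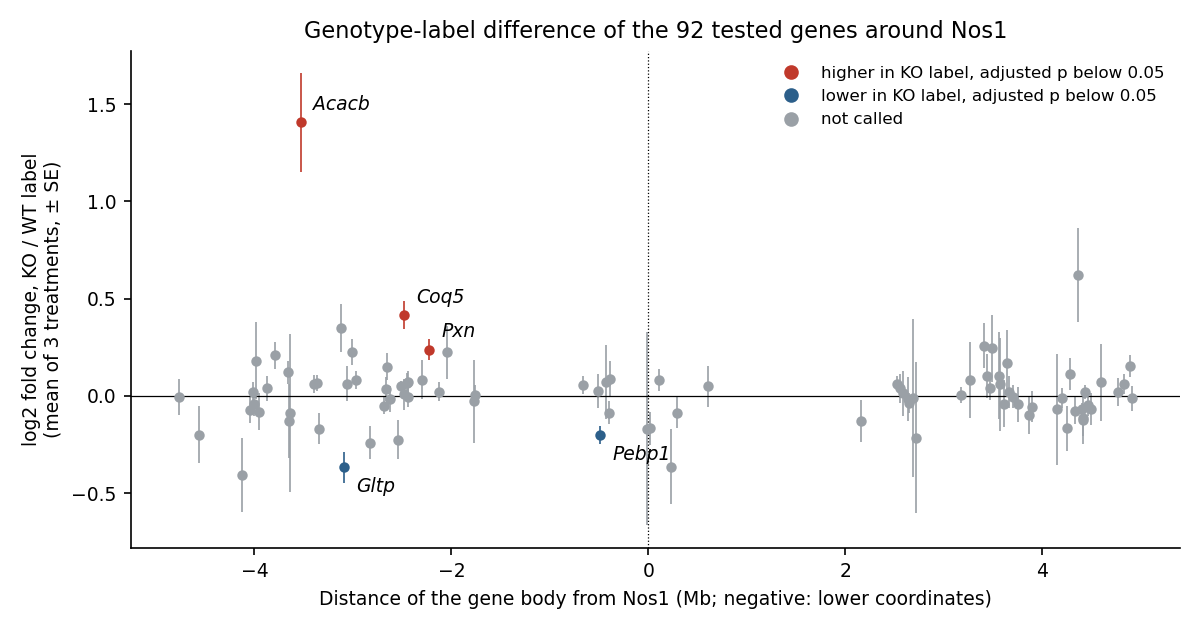
Log2 fold change of KO over WT label, averaged over 3 treatments (± SE), for the 92 tested genes by distance of the gene body from Nos1 in Mb. Acacb, Coq5 and Pxn lie above the line, Gltp and Pebp1 below it, and all 5 are on the side of lower coordinates.

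Acacb encodes the mitochondrial acetyl-CoA carboxylase, whose product malonyl-CoA restrains the entry of fatty acids into mitochondria. Its gene body spans chr5:114146535-114250761 on the plus strand, 3.53 Mb below Nos1. Acacb was scarce, with 12 to 66 counts per KO-labelled library and 2 to 52 per WT-labelled library. In control libraries it stood at 2.01, 2.92 and 5.23 CPM (lowest, median and highest of 6) in the KO label, against 0.278, 0.932 and 1.44 CPM in the WT label, and the labels did not overlap. At 2 h the lowest, median and highest were 0.942, 1.87 and 2.68 CPM in the KO label and 0.418, 0.630 and 1.20 CPM in the WT label. At 8 h they were 2.59, 3.43 and 4.77 CPM in the KO label and 0.302, 0.887 and 5.56 CPM in the WT label. The labels overlapped at 2 h and 8 h, and at 8 h the overlap came from WT-labelled replicate 5 alone, since the next WT-labelled library held 1.70 CPM. That replicate had the highest sum of muscle markers, 4632 CPM, and the part of muscle RNA in its Acacb value was not tested. The log2 fold change was 1.41 ± 0.25 (SE) over the 3 treatments, with an adjusted p of 0.00455. Without the 4 libraries with muscle markers it was 1.83, with an adjusted p of 2.46e-05.

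Coq5 encodes the methyltransferase of coenzyme Q synthesis in the mitochondrial inner membrane. It lies at chr5:115279666-115296972 on the plus strand, 2.48 Mb below Nos1. Control libraries held 23.3, 27.2 and 31.6 CPM of Coq5 (lowest, median and highest) in the KO label, against 17.6, 20.8 and 23.9 CPM in the WT label. After 2 h of LPS the KO label had 23.3, 25.6 and 26.8 CPM and the WT label 12.4, 18.5 and 24.0 CPM. After 8 h the KO label had 26.3, 29.5 and 36.9 CPM and the WT label 19.1, 20.9 and 27.5 CPM. In each treatment the highest WT-labelled libraries overlapped the lowest KO-labelled ones. Coq5 was higher in the KO label by 0.42 ± 0.07 on the log2 scale over the 3 treatments, with an adjusted p of 0.00256. The single treatments gave 0.38 ± 0.12, 0.44 ± 0.12 and 0.43 ± 0.12 for control, 2 h and 8 h, and none of these was called (adjusted p of 0.456, 1 and 0.142). Coq5 was not called for LPS in either label at either time, although it fell at 8 h, with log2 fold changes of -0.67 in the KO label and -0.66 in the WT label, when library totals alone set the scale.

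Pxn encodes paxillin, the adaptor of focal adhesions that ties integrins to signalling and to actin. It lies at chr5:115506676-115555987 on the plus strand, 2.23 Mb below Nos1. The KO-labelled control libraries ran from 123.7 to 143.0 CPM with a median of 139.4, and the WT-labelled ones from 105.9 to 118.8 CPM with a median of 109.9. These control groups did not overlap. The KO label had medians of 186.6 CPM at 2 h and 158.2 CPM at 8 h, against 169.6 and 136.6 CPM in the WT label, and there the groups overlapped. Pxn was higher in the KO label by 0.24 ± 0.06 on the log2 scale over the 3 treatments (edgeR, adjusted p 0.035). LPS raised Pxn at 2 h in both labels, by 0.62 ± 0.10 in the KO label and 0.66 ± 0.10 in the WT label. Git2, an ARF GTPase-activating protein that binds paxillin, lies 3.01 Mb below Nos1 and was not called over the 3 treatments, at 0.23 ± 0.07 and an adjusted p of 0.109.

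Gltp encodes the glycolipid transfer protein, which carries glycosphingolipids between membranes. It lies at chr5:114669398-114690984 on the minus strand, 3.09 Mb below Nos1. In control libraries the KO label held 182.6, 198.0 and 270.9 CPM (lowest, median and highest), and the WT label 228.7, 269.8 and 314.2 CPM. At 2 h the KO label held 171.0, 206.8 and 253.6 CPM and the WT label 211.7, 269.8 and 343.4 CPM. At 8 h the KO label held 105.5, 124.0 and 139.6 CPM and the WT label 128.2, 162.8 and 191.3 CPM. The medians of the KO label were below those of the WT label in each treatment, and the ranges overlapped in each. Gltp was lower in the KO label by a log2 fold change of -0.37 ± 0.08 over the 3 treatments, with an adjusted p of 0.0256 from edgeR. Gltp kept its size but lost its call without KO-labelled control replicate 5 (adjusted p 0.0532), without KO-labelled LPS 2h replicate 5 (adjusted p 0.0514) and without the 4 libraries with muscle markers (adjusted p 0.0538). LPS lowered Gltp by 8 h in both labels, with log2 fold changes of -0.81 ± 0.14 in the KO label and -0.73 ± 0.14 in the WT label.

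Pebp1 encodes a phosphatidylethanolamine-binding protein that holds back the MAP kinase cascade. It lies at chr5:117282654-117287625 on the minus strand, 0.49 Mb below Nos1, and is the nearest of the 5. In control libraries the KO label ran from 95.4 to 110.4 CPM with a median of 101.5, and the WT label from 113.6 to 121.3 CPM with a median of 115.0, without overlap. The medians were 101.5 CPM at 2 h and 101.5 CPM at 8 h in the KO label, against 123.9 and 112.7 CPM in the WT label, with overlapping ranges. The log2 fold change over the 3 treatments was -0.20 ± 0.05 (edgeR, adjusted p 0.0365). Pebp1 is uncertain, because it shares 25.8% of its 25-base words with the pseudogene Gm10819 and 21.5% with the pseudogene Gm9824. The counts on these pseudogenes came to 0.655% and 0.108% of those on Pebp1. Gm10819 averaged 0.986 CPM over the KO-labelled and 0.419 CPM over the WT-labelled libraries, and Gm9824 averaged 0.137 and 0.107 CPM. Acacb, Gltp, Coq5 and Pxn shared fewer than 100 such words with any other gene. Genes on the same stretch of DNA as Acacb, Coq5 and Pxn held at most 0.472% of their counts, and the strand setting of the counting is not given in the sources used here.

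**Figure D2:**
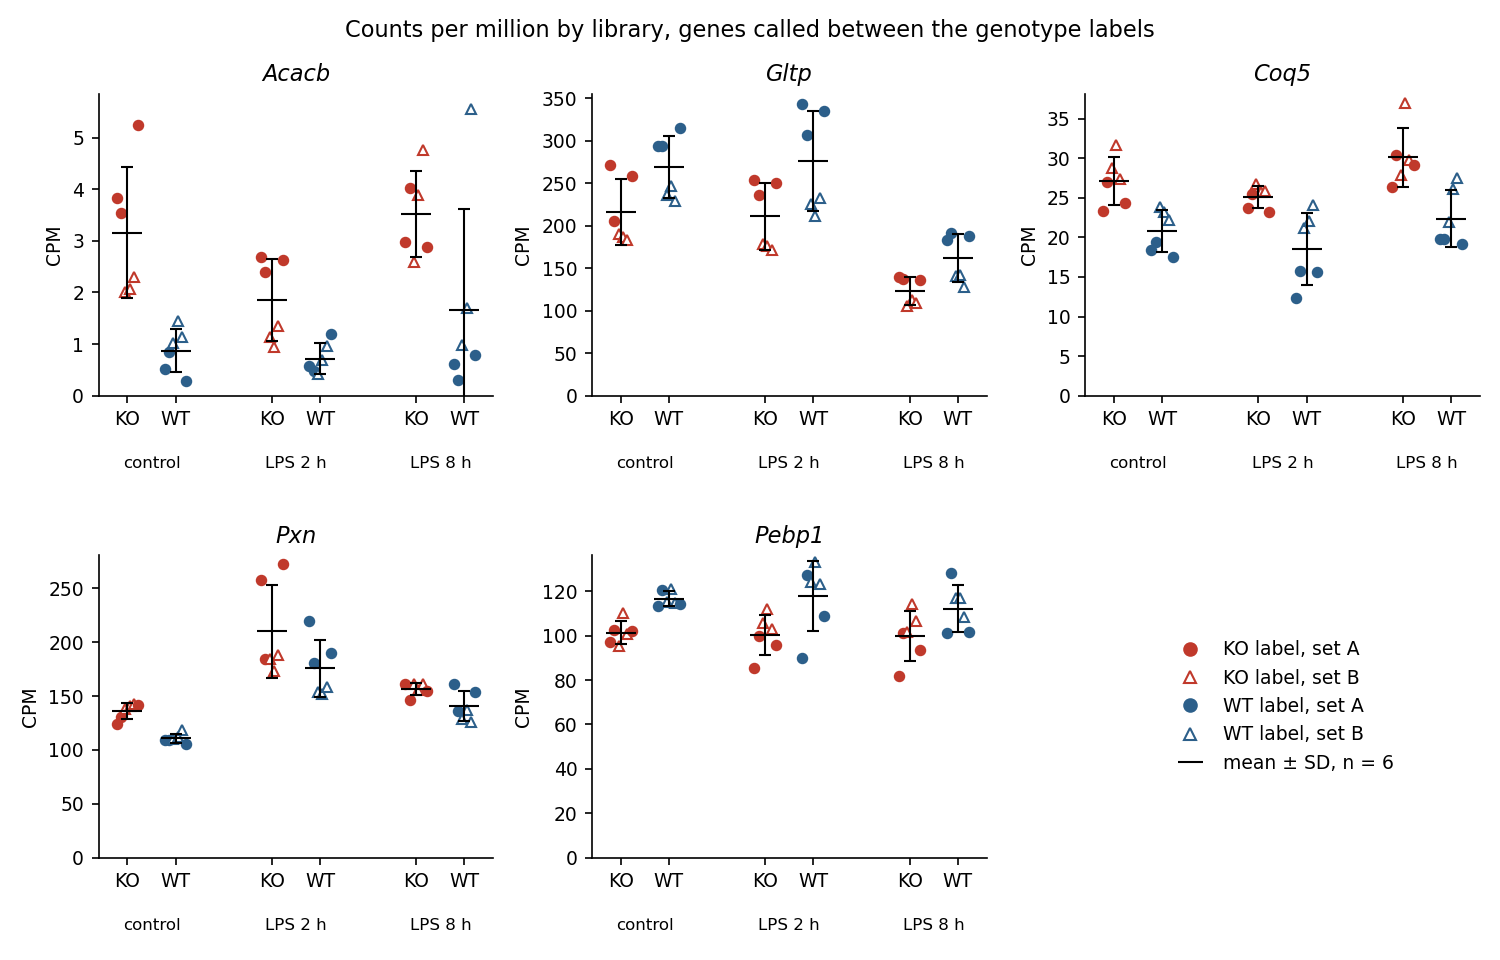
CPM of Acacb, Gltp, Coq5, Pxn and Pebp1 in each library, KO label left of WT label within each treatment; filled circles are set A, open triangles set B, and bars are mean ± SD (n = 6). In Gltp, each set forms its own band and the KO label lies below the WT label within both bands.

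The 250 bases before the annotated start are shown for the called genes that had an entry in the RefSeq table for GRCm38.p6. Counts were made per gene, and a link between these windows and the differences was not tested. Capitals mark CG dinucleotides, the sites of DNA methylation. The Acacb window is chr5:114165268-114165517 on the plus strand, upstream of a start inside the gene body given above. The Gltp window is chr5:114690936-114691185 and the Pebp1 window chr5:117287565-117287814, both on the minus strand.
Acacb: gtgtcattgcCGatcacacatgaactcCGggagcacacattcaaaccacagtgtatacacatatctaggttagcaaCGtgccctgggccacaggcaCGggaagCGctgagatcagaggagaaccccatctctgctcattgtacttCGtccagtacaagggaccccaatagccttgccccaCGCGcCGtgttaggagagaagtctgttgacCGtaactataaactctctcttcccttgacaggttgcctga
Gltp: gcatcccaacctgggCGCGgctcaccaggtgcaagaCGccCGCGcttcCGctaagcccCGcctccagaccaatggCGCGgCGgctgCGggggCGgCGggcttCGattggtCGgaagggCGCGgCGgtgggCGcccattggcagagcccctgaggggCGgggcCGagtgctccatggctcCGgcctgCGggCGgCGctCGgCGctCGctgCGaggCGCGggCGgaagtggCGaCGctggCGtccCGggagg
Pebp1: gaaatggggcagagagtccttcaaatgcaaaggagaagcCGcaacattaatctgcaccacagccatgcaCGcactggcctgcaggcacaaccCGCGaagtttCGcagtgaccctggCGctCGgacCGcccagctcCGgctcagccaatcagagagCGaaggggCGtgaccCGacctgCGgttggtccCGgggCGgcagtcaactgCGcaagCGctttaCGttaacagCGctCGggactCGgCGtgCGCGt
The Acacb window holds 10 CG sites, more than 62.2% of the 32851 windows in the table. The Gltp window holds 36 CG sites and is 76.8% G and C, and 97.4% of all windows hold fewer. Pebp1 has 24 CG sites, more than 88% of all windows. The median was 18 CG sites over the 113 windows of the 93 matched genes and 6 over all windows.

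Coq5 and Gltp were called within each of the library sets. The sets were drawn from these same counts, which narrows the spread within a set. Libraries of different treatments may also share a culture. The p-values and separations within sets, and p-values with the set as a term, can therefore look stronger than they are. When 1 mean was fitted per group and set, edgeR called 5 of the 92 genes between the labels over the 3 treatments in set A, 4 higher and 1 lower in the KO label, beside 0.224% of all genes tested, or 0.178% higher and 0.0463% lower. In set B it called 18 of the 92, or 19.6%, beside 16.6% of all genes tested, which is near that background. Libraries of a group were closer to each other in set B, with a median chi-square per gene of 3.27 over 18 pairs, than in set A, with 14.7 over 18 pairs, and pairs with 1 library in each set had 48.5. The genes called in both sets were Coq5 and Gltp, with Acacb and Pebp1 added without WT-labelled LPS 2h replicate 1. The KO-labelled and WT-labelled libraries of Coq5 and Gltp did not overlap in any of the 3 treatments in either set, which held for 2 of the 92 genes and for 0.0617% of all genes tested.

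In set A, the control libraries of Gltp held 205.6, 258.7 and 270.9 CPM in the KO label, against 293.1, 294.1 and 314.2 CPM in the WT label. In set B they held 182.6, 187.1 and 190.4 CPM in the KO label, against 228.7, 235.9 and 246.5 CPM in the WT label. Set B was lower than set A in both labels, and the KO label was lower than the WT label in both sets. The log2 fold change of Gltp in set A was -0.38 ± 0.04, with an adjusted p of 2.35e-07, and in set B -0.34 ± 0.04, with an adjusted p of 2.03e-07. The difference between the sets was -0.04 with an adjusted p of 0.774. For Coq5, the control libraries of set A held 23.3, 24.3 and 26.9 CPM in the KO label, against 17.6, 18.4 and 19.4 CPM in the WT label. Those of set B held 27.4, 28.8 and 31.6 CPM in the KO label, against 22.2, 23.2 and 23.9 CPM in the WT label. Here set B was the higher one in both labels. Coq5 had a log2 fold change of 0.57 ± 0.06 in set A, with an adjusted p of 1.67e-07, and of 0.30 ± 0.06 in set B, with an adjusted p of 0.00042. The sets differed in Coq5 by 0.27, with an adjusted p of 0.0364, or 0.0796 without the 3 libraries with Xist counts.

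The other 3 genes called in set A were Acacb, Git2 and Ankrd13a, a ubiquitin-binding ankyrin repeat protein whose gene overlaps the start of Git2 on the opposite strand. Ankrd13a held 318.3% of the counts of Git2, and with the strand setting not given, reads of their overlap cannot be told apart. Acacb had a log2 fold change of 2.37 ± 0.26 in set A, with an adjusted p of 2.68e-07, and of 0.66 in set B, with an adjusted p of 0.0557. The difference between the sets, 1.71 ± 0.36, passed the test with an adjusted p of 0.00151. In set A the control libraries of Acacb held 3.53, 3.82 and 5.23 CPM in the KO label, against 0.278, 0.526 and 0.844 CPM in the WT label. Without the 4 libraries with muscle markers, Acacb was called in set B as well, at 1.11 and an adjusted p of 0.000235. Git2 had 0.38 ± 0.06 in set A, with an adjusted p of 0.000131, and 0.06 in set B, with an adjusted p of 0.556, and the difference had an adjusted p of 0.00689. Ankrd13a had 0.20 ± 0.04 in set A (adjusted p 0.0388), or 0.18 with an adjusted p of 0.187 without the Xist libraries.

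Of the 18 genes called in set B, 8 were higher and 10 lower in the KO label, beside 10.1% and 6.49% of all genes. Hvcn1, the voltage-gated proton channel that sustains the phagocyte oxidative burst, was lower by a log2 fold change of -0.53 ± 0.07 (adjusted p 4.79e-07). At 8 h, Hvcn1 in set B stood at 16.0, 16.4 and 16.6 CPM in the KO label, against 30.6, 31.8 and 34.5 CPM in the WT label. In set A at 8 h it stood at 31.9, 39.7 and 40.0 CPM in the KO label, against 27.2, 30.6 and 35.9 CPM in the WT label. The KO label was thus lower without overlap in set B and overlapped the WT label in set A. The 7 neutrophil markers, of which Ly6g was at 0 at 8 h in the WT label, moved with Hvcn1 in set B at 8 h, where they summed to 94.4, 100.0 and 102.2 CPM in the KO label, against 167.0, 172.7 and 177.6 CPM in the WT label. In set A at 8 h they summed to 37.9, 50.1 and 57.9 CPM in the KO label, against 23.94, 25.04 and 54.04 CPM in the WT label. Stromal markers in set B at 8 h summed to 27.4, 28.1 and 29.3 CPM in the KO label, against 51.3, 52.1 and 194.0 CPM in the WT label. Neutrophil, stromal, erythroid and macrophage sums were lower in the KO label without overlap in set B in each of the 3 treatments. Endothelial sums went the other way in set B, higher in the KO label without overlap in each treatment. After 8 h they were 111.9, 114.2 and 125.7 CPM in the KO label, against 74.65, 80.6 and 84.1 CPM in the WT label. The part of these marker lists in the calls of set B was not tested. The difference between the sets in the 8 h contrast of Hvcn1 was 1.23 ± 0.17 on the log2 scale, with an adjusted p of 1.42e-05. Trafd1, a zinc finger protein that dampens Toll-like receptor signalling, was higher in set B by 0.54 ± 0.09 (adjusted p 7e-05), with 77.7, 79.7 and 106.6 CPM in the KO-labelled controls against 43.0, 47.8 and 52.0 CPM in the WT-labelled ones. Rnf34, a RING-type ubiquitin ligase, was higher in set B by 0.31 ± 0.04 (adjusted p 1.59e-06). In set A the values were 0.06 for Trafd1 and -0.0024 for Rnf34, neither of them called.

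The difference between the sets passed the test in 14 of the 92 genes, or 15.2%, beside 9.64% of all genes tested. It was positive, meaning a higher KO to WT ratio in set A, in 9 genes and negative in 5, beside 3.95% and 5.69% of all genes. Acacb, Hvcn1, Git2, Ankrd13a, Coq5, Aldh2, Hectd4, Mmab and Mlec made up the positive ones, and Rnf34, Selplg, Trafd1, Naa25 and Taok3 the negative ones. Across the 92 genes the log2 fold changes of the 2 sets had a Pearson r of 0.31 and a Spearman rho of 0.11, and across all genes tested a Pearson r of 0.0077. The same sign was found in both sets for 46 of the 92 genes and opposite signs for 46. The points share the normalization, and neighbouring genes are not independent replicates. The 3 libraries with Xist counts are WT-labelled and belong to set A, and their part in the differences between sets was not tested beyond leaving them out.

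**Figure D3:**
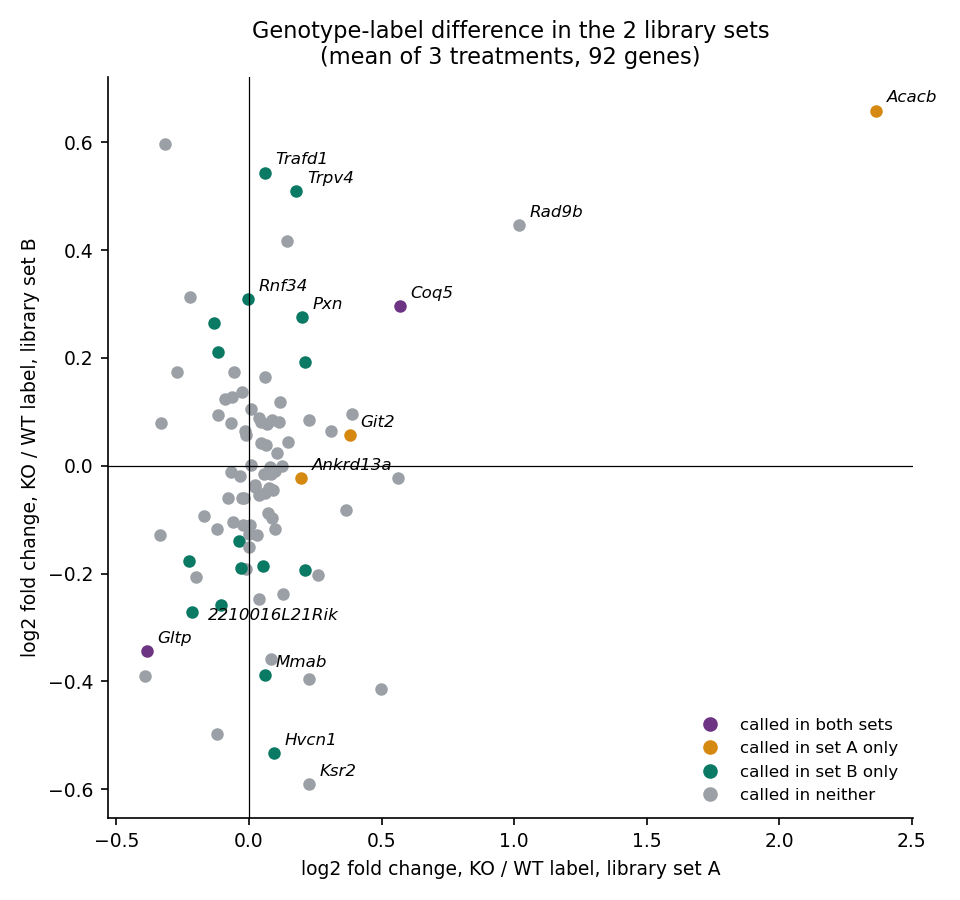
Log2 fold change of KO over WT label, averaged over 3 treatments, in library set A (x axis) and set B (y axis) for the 92 genes, coloured by the sets in which edgeR called them. Coq5 and Gltp lie away from 0 on both axes, Acacb far out on the axis of set A, and Hvcn1 low on the axis of set B.

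Of the 5 tested genes next to Nos1 on each side, Pebp1, described above, was called over the 3 treatments and the other 9 were not. On the side of lower coordinates, Ksr2, a scaffold of the MAP kinase cascade, had a log2 fold change of -0.17 ± 0.50 over the 3 treatments, and at most 27 counts in any library. Rfc5, a subunit of the clamp loader of DNA replication, had 0.09 ± 0.09. Wsb2, a SOCS box protein, had -0.09 ± 0.06, and Vsig10, an immunoglobulin-domain protein, had 0.07 ± 0.19. On the side of higher coordinates, the F-box protein genes Fbxo21 and Fbxw8 had -0.16 ± 0.08 and 0.08 ± 0.06. Rnft2, a membrane protein with a RING domain, had -0.36 ± 0.19, 2410131K14Rik had -0.09 ± 0.08, and Med13l, a part of the Mediator kinase module, had 0.05 ± 0.11. Their adjusted p-values were 0.523 or higher. In set B, Wsb2 and Fbxo21 were among the 18 genes called, at -0.14 and -0.26. Standard errors were smallest for the abundant Wsb2 and Fbxw8 and largest for Ksr2, so a small difference in Ksr2 was not detectable at this depth.

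Position in the window was described without a test. All 5 called genes lay among the 47 tested genes with lower coordinates than Nos1, and 0 among the 45 with higher coordinates. By distance, 1 of 12 genes was called within 1 Mb, 0 of 2 between 1 and 2 Mb, 2 of 25 between 2 and 3 Mb, 2 of 30 between 3 and 4 Mb and 0 of 23 between 4 and 5 Mb. Among the coding genes 5 to 10 Mb from Nos1, 1 of 94 was called, and on the rest of chromosome 5, 2 of 544. On other chromosomes 56 of 10967 coding genes were called, or 0.511%. The absolute fold change had a Pearson r of 0.015 and a Spearman rho of -0.05 with distance over the 92 genes, which share the libraries and, in part, reads of overlapping neighbours.

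Complete separation of the labels was rare. In control libraries, the 6 KO-labelled and 6 WT-labelled libraries did not overlap in 3 of the 92 genes, beside 0.178% of all genes tested: Acacb and Pxn were higher in the KO label and Pebp1 was lower. At 2 h this held for 2 genes, beside 0.185%: Bicdl1, a dynein adaptor of vesicle traffic, and Adam1a, an ADAM family membrane protein, both higher in the KO label. Adam1a was scarce, with a mean log2 CPM of -0.48 and 3 libraries of each label above the count minimum. Its gene overlaps Gm42878 and Mapkapk5 on the same strand, and reads of their overlap cannot be told apart. At 8 h it held for Git2, beside 0.378%, with a lowest, median and highest of 61.4, 63.3 and 67.1 CPM in the KO label against 45.9, 56.3 and 61.2 CPM in the WT label. In all 3 treatments at once it held for 0 of the 92 genes and for 0.0386% of all genes tested. Bicdl1, Adam1a and Git2 were named after their values were seen.

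Many more genes of the window were called for LPS than for the genotype label. After 2 h, 39 of 92 genes were called against control in the KO label, 17 higher and 22 lower, beside 35.2% of all genes, or 18.9% higher and 16.4% lower. In the WT label 42 were called, 20 higher and 22 lower, beside 37.9% of all genes, or 20.3% higher and 17.6% lower. After 8 h, 72 of 92 were called in each label, beside 72.1% of all genes in the KO label and 71.2% in the WT label. The 8 h calls were 31 higher and 41 lower in the KO label, beside 34.9% and 37.1% of all genes, and 33 higher and 39 lower in the WT label, beside 34.2% and 37.0%. These shares are near those of all genes. Several marker sums moved with LPS. Endothelial markers summed to 91.6 to 125.7 CPM at 8 h and 3.34 to 13.3 CPM in controls in the KO label. In the WT label they summed to 71.7 to 111.8 CPM at 8 h and 3.89 to 9.95 CPM in controls. Osteoclast markers summed to 37.19 to 63.59 CPM at 8 h and 7.389 to 22.37 CPM in controls in the KO label. In the WT label these were 31.55 to 71.35 CPM and 7.361 to 17.45 CPM. Dendritic cell sums were higher and mast cell and basophil sums lower at 8 h than in controls, without overlap in either label. The part of these markers was not tested. The 2 LPS times share their control libraries, so they are not set against each other.

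The directions depend on the scaling. TMM takes the bulk of genes as the fixed point, and scaling to library totals alone moved the median log2 fold change of all genes by -0.29 at 2 h and -0.79 at 8 h in the KO label, and by -0.30 and -0.74 in the WT label. On that scale the split at 8 h was 7 higher and 72 lower in the KO label and 8 higher and 71 lower in the WT label. Of all genes, 85.6% were called on that scale at 8 h in the KO label, 16.7% higher and 68.9% lower, and 85.1% in the WT label, 16.9% higher and 68.2% lower. At 2 h it was 7 higher and 52 lower in the KO label, beside 56.1% of all genes, 11.4% higher and 44.7% lower. In the WT label it was 10 higher and 50 lower at 2 h, beside 58.7% of all genes, 12.2% higher and 46.5% lower. Of the genes called higher at 8 h, 19 of 31 in the KO label and 20 of 33 in the WT label were below 0 with library totals, and at 2 h 1 of 17 and 3 of 20 were. Of those below 0 at 8 h, 12 in the KO label and 14 in the WT label were called lower on that scale. Grk3, Kctd10, Med13l, Naa25, Rnf34 and Trafd1 were called higher at 8 h in both labels on either scale. None of the genes called lower was above 0 with library totals at either time. The changes below are relative to the bulk of genes. Of all genes, 34.9% were called higher and 37.1% lower at 8 h in the KO label, and 34.2% and 37.0% in the WT label. The counts of the role groups below stand beside these shares and, for library totals, beside those given above. The groups hold 6 to 15 tested genes and were not tested against these shares.

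Among the 10 tested receptors, channels and immune regulators of the window, 4 rose and 3 fell after 8 h in each label, or 1 and 6 in the KO label and 2 and 6 in the WT label when library totals alone set the scale. Trafd1 was the gene with the largest rise at 8 h in both labels. It stood at 757.1, 848.6 and 1042 CPM (lowest, median and highest) after 8 h in the KO label, against 74.9, 93.1 and 132.1 CPM in its control. WT-labelled libraries held 612.9, 763.8 and 928.2 CPM of Trafd1 after 8 h, against 43.0, 65.5 and 101.0 CPM in its control. The LPS and control libraries were far apart in both labels. The log2 fold changes of Trafd1 were 3.18 ± 0.22 in the KO label (adjusted p 4.2e-15) and 3.47 ± 0.22 in the WT label (adjusted p 6.21e-16). At 2 h they were 0.64 in the KO label and 1.0 in the WT label, also called, but library totals alone gave 0.34 in the KO label, which was not called (adjusted p 0.133).

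Cmklr1, the receptor of the chemoattractant chemerin, held 4.62, 9.16 and 11.8 CPM after 8 h in the KO label, against 2.54, 4.30 and 6.06 CPM in its control. The WT label had 6.79, 19.7 and 24.1 CPM after 8 h, against 1.63, 3.78 and 5.44 CPM in its control. Both labels rose, with log2 fold changes of 1.05 ± 0.33 (adjusted p 0.00535) in the KO label and 2.23 ± 0.33 (adjusted p 3.99e-07) in the WT label. Cmklr1 at 8 h differed between the labels by -1.0 ± 0.32, which was not called over all libraries (adjusted p 0.216). Selplg, the P-selectin ligand PSGL-1, rose at 8 h by 0.81 ± 0.16 in the KO label and 0.82 ± 0.16 in the WT label, but had -0.02 in the KO label and 0.03 in the WT label when library totals alone set the scale. Hvcn1 rose at 2 h, by 0.69 ± 0.20 in the KO label, not called with library totals alone (0.38, adjusted p 0.082), and by 0.94 ± 0.20 in the WT label, and at 8 h was not called in either, while library totals alone put its 8 h values at -0.82 in the KO label and -0.51 in the WT label. Tpcn1, a cation channel of endosomes and lysosomes, fell at 8 h, with log2 fold changes of -2.57 ± 0.21 in the KO label and -2.32 ± 0.21 in the WT label. Tmem119, better known as a marker of microglia, and Trpv4, a calcium-permeable channel, also fell at 8 h in both labels.

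**Figure D4:**
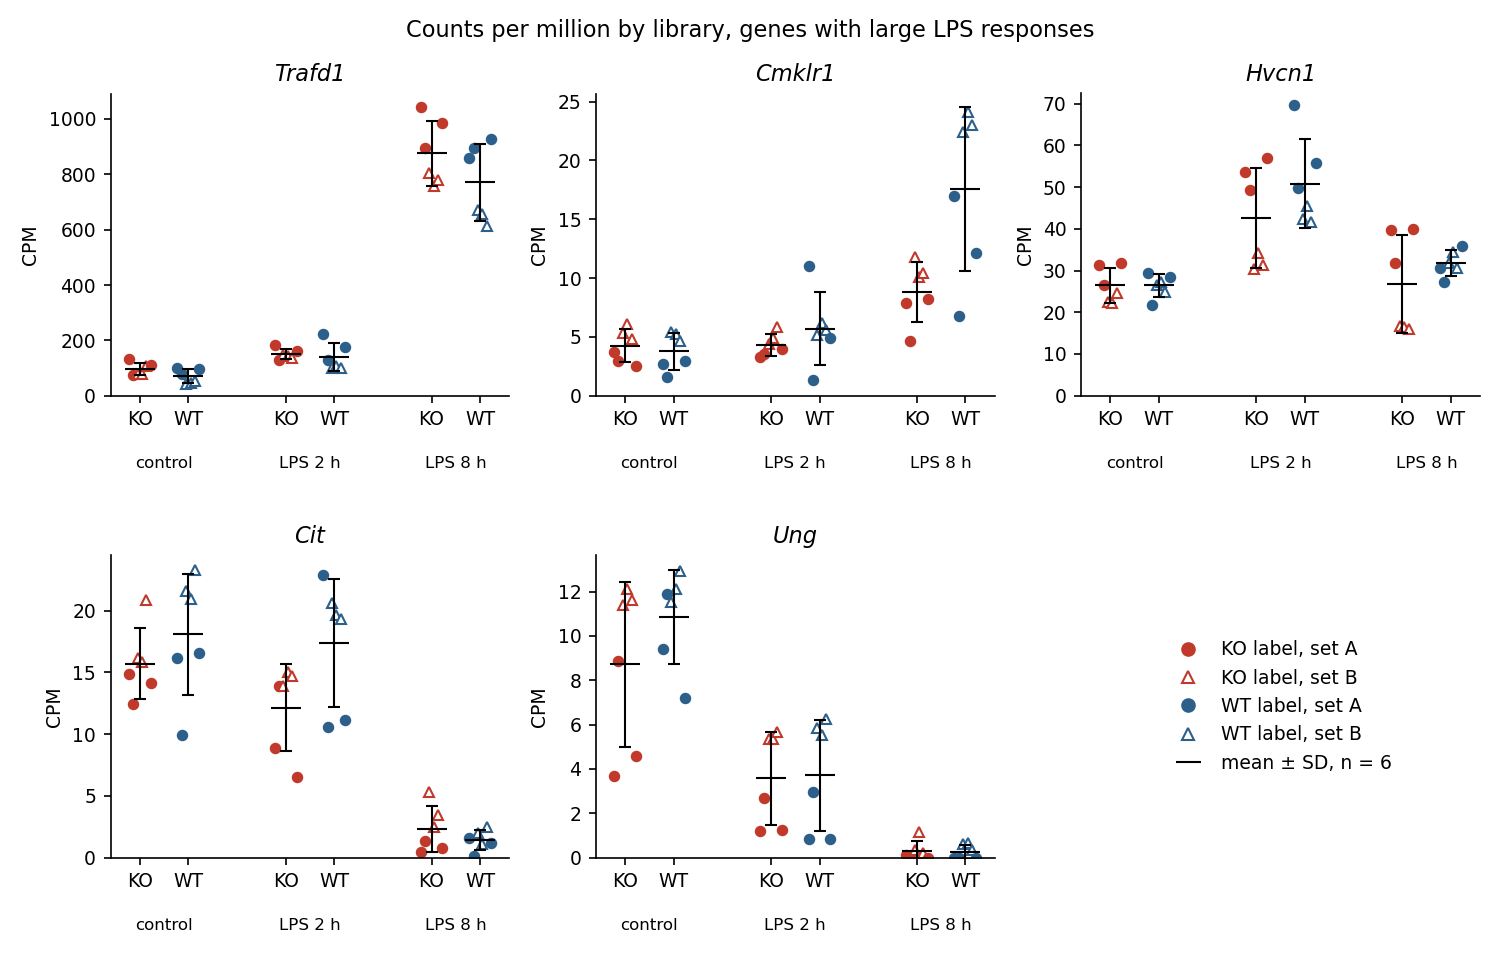
CPM of Trafd1, Cmklr1, Hvcn1, Cit and Ung in each library, KO label left of WT label within each treatment; filled circles are set A, open triangles set B, and bars are mean ± SD (n = 6). At 8 h, Trafd1 is high and Cit and Ung are low in both labels, and Hvcn1 of the KO label splits into its sets.

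In the DNA repair, chromatin and transcription group, 7 genes were tested, of which 2 rose and 5 fell after 8 h in each label, or 1 and 6 in each when library totals alone set the scale. Ung, the uracil-DNA glycosylase that removes uracil from DNA, stood at 0, 0.145 and 1.14 CPM after 8 h in the KO label, against 3.69, 10.1 and 12.1 CPM in its control. WT-labelled libraries held 0, 0.16 and 0.660 CPM after 8 h, against 7.22, 11.7 and 12.9 CPM in its control. The 8 h libraries held 18 counts of Ung in all in the KO label and 16 in the WT label, against 797 and 956 counts in their controls. The fitted log2 fold changes, which rest on these few counts, were -4.79 ± 0.66 in the KO label (adjusted p 7.21e-08) and -5.21 ± 0.67 in the WT label (adjusted p 1.98e-08). Kdm2b, a histone demethylase, fell, with log2 fold changes of -2.32 ± 0.12 in the KO label and -2.27 ± 0.12 in the WT label. Rfc5 fell as well, with -0.78 ± 0.16 in the KO label and -1.18 ± 0.16 in the WT label. Rad9b, a paralogue of the DNA damage clamp subunit Rad9, fell at low counts, with -1.42 in the KO label and -2.53 in the WT label. Med13l was one of the genes that rose, by 1.55 ± 0.19 in the KO label and 1.32 ± 0.19 in the WT label. The other was Suds3, a subunit of the Sin3 histone deacetylase complex, at 0.51 in the KO label and 0.50 in the WT label, which were -0.32 and -0.28 when library totals alone set the scale.

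Of 15 tested kinases, phosphatases and adaptors, 7 rose and 6 fell after 8 h in the KO label, and 6 rose and 6 fell in the WT label. When library totals alone set the scale, Grk3 alone of these rose and 9 fell in each label. Grk3, a kinase that desensitizes G protein-coupled receptors, stood at 25.3, 29.7 and 34.2 CPM after 8 h in the KO label, against 3.42, 4.78 and 6.82 CPM in its control. In the WT label it stood at 18.7, 26.7 and 31.4 CPM after 8 h, against 3.68, 4.67 and 5.70 CPM in its control. Grk3 rose by 2.61 ± 0.17 in the KO label and 2.48 ± 0.17 in the WT label, without overlap. Camkk2, the calcium-dependent kinase upstream of AMPK, rose by 0.87 ± 0.13 in the KO label and 1.03 ± 0.13 in the WT label, and stayed above 0 on either scale. Ptpn11, the phosphatase SHP2, rose by 0.74 ± 0.07 in the KO label and 0.76 ± 0.07 in the WT label, but these changes were -0.09 and -0.0082 when library totals alone set the scale. Cit, the citron kinase of cytokinesis, stood at 0.409, 1.88 and 5.30 CPM after 8 h in the KO label, against 12.4, 15.4 and 20.9 CPM in its control. In the WT label Cit stood at 0.151, 1.38 and 2.46 CPM after 8 h, against 9.95, 18.7 and 23.3 CPM in its control. Cit fell, with log2 fold changes of -2.79 ± 0.36 in the KO label and -3.62 ± 0.38 in the WT label. Ksr2 had -2.47 ± 0.74 in the KO label and -3.33 ± 0.77 in the WT label, both called, with 0 to 4 counts per library after 8 h. Sh2b3, the adaptor LNK that restrains cytokine receptor signalling, also fell, at -0.88 ± 0.17 in the KO label and -0.74 ± 0.17 in the WT label.

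In the ubiquitin system 12 genes were tested, of which 5 rose and 3 fell after 8 h in the KO label, and 5 rose and 2 fell in the WT label. When library totals alone set the scale, Rnf34 and Kctd10 rose and 10 fell in each label. Rnf34 stood at 103.1, 116.3 and 127.4 CPM after 8 h in the KO label, against 25.6, 31.9 and 37.7 CPM in its control, a rise of 1.85 ± 0.10. WT-labelled libraries held 76.9, 100.2 and 117.0 CPM of Rnf34 after 8 h, against 26.3, 27.4 and 30.2 CPM in its control, a rise of 1.83 ± 0.10. Kctd10, a substrate adaptor of cullin ligases, rose by 1.52 ± 0.08 in the KO label and 1.53 ± 0.08 in the WT label. Fbxo21 fell, with -1.86 ± 0.15 in each label. Wsb2 and Fbxw8 rose by 0.58 and 0.35 in the KO label and by 0.51 and 0.35 in the WT label, and both were below 0 in each label when library totals alone set the scale.

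Of 9 tested genes of the cytoskeleton and membrane traffic, 3 rose and 3 fell after 8 h in the KO label, and 5 rose and 3 fell in the WT label. All 9 fell in each label when library totals alone set the scale. Coro1c, a coronin that binds actin filaments, stood at 107.6, 128.4 and 146.7 CPM after 8 h in the KO label, against 286.2, 362.0 and 380.4 CPM in its control. WT-labelled libraries held 100.8, 126.3 and 155.7 CPM after 8 h, against 274.1, 363.2 and 372.4 CPM in its control. Coro1c fell without overlap, with log2 fold changes of -1.45 ± 0.11 in the KO label and -1.43 ± 0.11 in the WT label. Tchp, the centrosomal protein trichoplein, fell at 2 h, with -1.01 ± 0.15 in the KO label and -1.22 ± 0.15 in the WT label. Ift81, a subunit of the transport machinery of cilia, fell at 8 h, with -0.92 ± 0.34 in the KO label and -0.92 ± 0.35 in the WT label, where the call was lost without control replicate 1 (adjusted p 0.093) and without control replicate 6 (adjusted p 0.0756). Vps29, a subunit of the retromer of endosomes, had 0.11 ± 0.06 at 8 h in the KO label (adjusted p 0.108) and was called at 0.23 ± 0.06 in the WT label, but fell in both when library totals alone set the scale. The interaction of Vps29 was not called.

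Among 9 tested metabolic and mitochondrial enzymes, 1 rose and 5 fell after 8 h in each label, or 0 and 8 in each when library totals alone set the scale. Gatc, a subunit of the mitochondrial enzyme that makes glutaminyl-tRNA, stood at 6.83, 9.73 and 11.2 CPM after 8 h in the KO label, against 22.1, 22.6 and 25.9 CPM in its control. In the WT label it stood at 8.83, 10.2 and 11.8 CPM after 8 h, against 20.1, 21.3 and 23.3 CPM in its control. Gatc fell, with log2 fold changes of -1.28 ± 0.10 in the KO label and -1.07 ± 0.09 in the WT label. Sirt4, a mitochondrial sirtuin, fell at 2 h, with -0.81 ± 0.17 in each label. Acads, the short-chain acyl-CoA dehydrogenase, fell at 8 h, with -0.62 ± 0.10 in the KO label and -0.48 ± 0.10 in the WT label. Aldh2, the mitochondrial aldehyde dehydrogenase, was not called at either time, with -0.15 ± 0.21 in the KO label and -0.18 ± 0.21 in the WT label at 8 h. Iscu, the scaffold on which iron-sulfur clusters are built, was the 1 that rose, by 0.35 ± 0.10 in the KO label and 0.38 ± 0.10 in the WT label, but it had -0.47 in the KO label and -0.40 in the WT label when library totals alone set the scale. Acacb, Coq5 and Aldh2 were the enzymes not called for LPS in either label at 8 h.

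In the RNA binding and processing group, 3 of 6 tested genes rose and 2 fell after 8 h in each label, or 0 and 5 in each when library totals alone set the scale. Rbm19, which takes part in ribosomal RNA processing, fell, with log2 fold changes of -0.66 ± 0.19 in the KO label and -0.69 ± 0.19 in the WT label. Pop5, a subunit of ribonuclease P, fell too, with -1.17 ± 0.18 in the KO label and -1.03 ± 0.18 in the WT label. Among the 93 genes with an entry in the RefSeq table, Rbm19 was the 1 whose 250 bases before the start held the letters GGGANTTTC, the core of an NF-kB motif, on either strand. The RefSeq window is chr5:120116263-120116512 on the plus strand, and capitals mark the match, which begins 72 bases before the start.
Rbm19: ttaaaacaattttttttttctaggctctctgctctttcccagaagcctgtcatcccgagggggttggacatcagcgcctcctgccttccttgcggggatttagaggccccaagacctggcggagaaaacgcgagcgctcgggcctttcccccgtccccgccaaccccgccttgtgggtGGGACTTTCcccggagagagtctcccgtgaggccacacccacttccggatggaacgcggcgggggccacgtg
These letters were found in 1 of 113 windows of the genes near Nos1, or 0.885%, and in 309 of 32851 windows in all, or 0.941%. The letters GAAANNGAA, the core of an interferon response motif, were found on either strand in 5 of 113 windows, those of Arpc3, Fam216a, Gpn3, Mapkapk5 and Prkab1, or 4.42%, and in 7.13% of all windows. The window of Rbm19 holds the first of these motifs and not the second, so no matches overlap there. Neither was found in the windows of Trafd1 or Rnf34.

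Outside the groups, Naa25, the auxiliary subunit of the NatB N-terminal acetyltransferase, held 123.0, 137.2 and 152.4 CPM after 8 h in the KO label, against 12.3, 25.6 and 30.5 CPM in its control. WT-labelled libraries held 114.9, 124.8 and 159.5 CPM after 8 h, against 15.8, 20.4 and 23.0 CPM in its control. The neighbours Trafd1, at chr5:121371725-121385632 on the minus strand, and Naa25, at chr5:121397936-121444378 on the plus strand, lie 3.41 and 3.44 Mb above Nos1. Naa25 rose by 2.59 ± 0.21 in the KO label and 2.76 ± 0.21 in the WT label. The transcript 2900026A02Rik fell, with log2 fold changes of -4.96 ± 0.26 in the KO label and -4.60 ± 0.25 in the WT label. Vsig10 had -3.25 ± 0.33 in the KO label and -2.96 ± 0.33 in the WT label, and was called in both. Acad12, of the acyl-CoA dehydrogenase family, was called at -1.93 ± 0.30 in the KO label and -1.61 ± 0.30 in the WT label. At 2 h, 2410131K14Rik fell, with -0.83 ± 0.14 in the KO label and -0.89 ± 0.14 in the WT label, and was not called at 8 h.

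**Figure D5:**
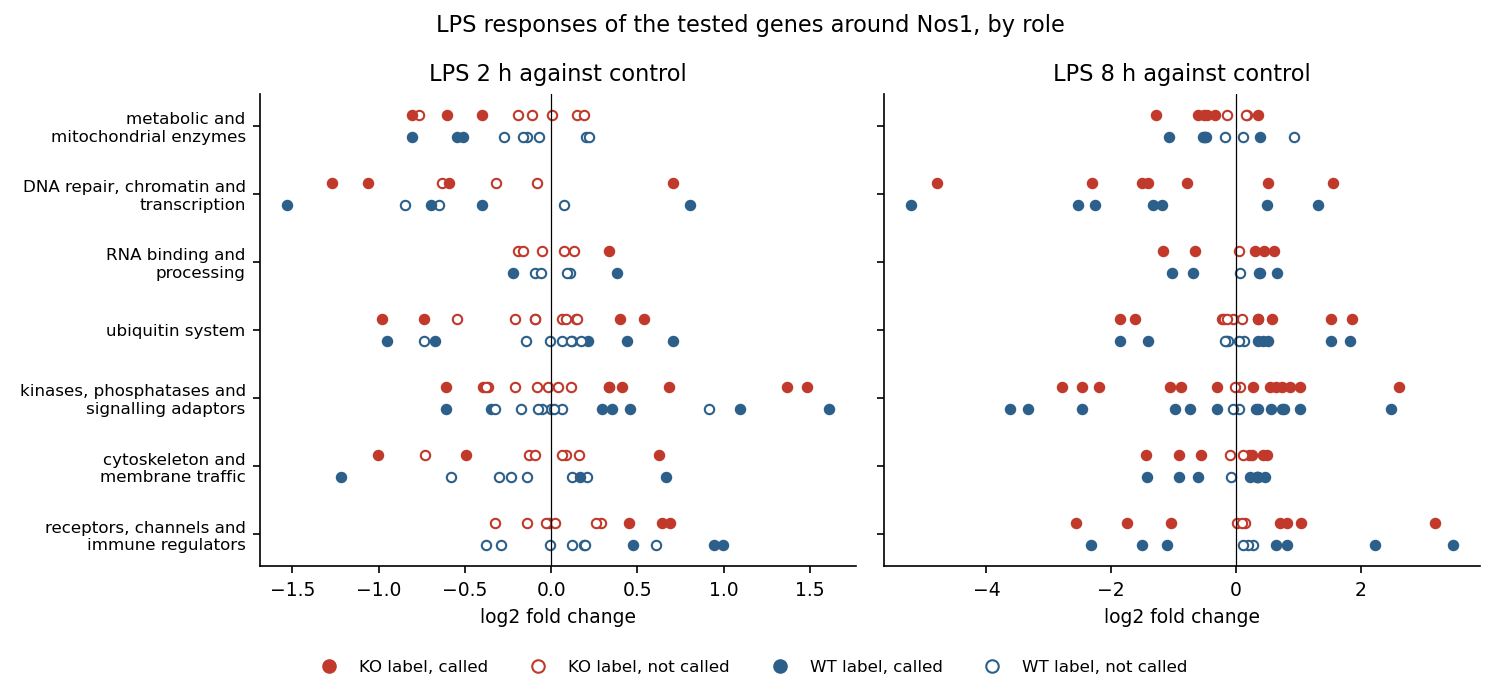
Log2 fold changes of LPS against control at 2 h (left) and 8 h (right) for the tested genes of each role group, KO label above WT label; filled points were called. At 8 h the points run from Ung, at -4.79 in the KO label and -5.21 in the WT label, up to Trafd1, at 3.18 and 3.47. Over all 92 tested genes, including those outside the groups and not shown, 19 of 31 rises called at 8 h in the KO label are below 0 when library totals alone set the scale. In the WT label 20 of 33 are.

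Over all libraries, no difference in the LPS response between the labels passed the test. The interaction of label and LPS was called in 0 of 92 genes at 2 h and 0 at 8 h, beside 0% of all genes tested at either time. At an unadjusted p below 0.05, edgeR gave 2 genes at 2 h and 2 at 8 h, or 2.17% each, beside 1.18% and 4.17% of all genes. DESeq2 and limma-voom called 0 of 92 at either time. In set B alone, edgeR called 2 of the 92 at 2 h and 12 at 8 h, beside 1.15% and 16.7% of all genes tested. Across the 92 genes the KO and WT responses had a Pearson r of 0.93 at 2 h and 0.97 at 8 h, and the points share the normalization.

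Levels between genes were compared per kb of exon. Over all libraries the most abundant of the tested genes was Arpc3, a subunit of the actin-nucleating Arp complex, with a mean of 178.1 CPM per kb. Gltp followed with 118.9, Aldh2 with 103.8, Trafd1 with 78.1 and Pebp1 with 61.2 CPM per kb. Pxn had 18.9 and Coq5 7.91 CPM per kb, and Acacb, at 0.204 CPM per kb, and Ksr2, at 0.0457 CPM per kb, lay near the lower end. Of the 38 genes that were not tested, 8 had no count in any library. The highest counts of an untested gene were 96 for Myo18b, 86 for Hspb8 and 60 for Tmem233, all in WT-labelled LPS 8h replicate 5. The muscle marker sum of that library is the highest of the 36, and its part in these counts was not tested.

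Of 19 other genes of the nitric oxide pathway, none of them in the window, 15 were tested. Between the labels, edgeR, DESeq2 and limma-voom each called 0 of the 15 in every treatment and in their average, and edgeR gave 0 at an unadjusted p below 0.05. After 8 h of LPS, 6 rose and 5 fell in each label, or 73.3%, which is near the share of all genes called at 8 h. With library totals alone, 6 rose and 8 fell in each label. Nos2 stood at 3923 ± 701.9 CPM in the KO label and 2681 ± 357.4 CPM in the WT label at 8 h, and at 0.655 ± 0.924 and 0.458 ± 0.779 CPM in their controls (SD, n = 6 each). Its 8 h libraries ran from 3113 to 4683 CPM in the KO label and from 2355 to 3168 CPM in the WT label. The fit shares 1 estimate of the spread of a gene over all 6 groups, scarce controls included. The lack of a call at 8 h therefore does not show that Nos2 was equal in the labels. Gch1, which makes the cofactor tetrahydrobiopterin, stood at 268.5 ± 18.2 CPM in the KO label and 263.2 ± 16.4 CPM in the WT label at 8 h. Nos2 and Gch1 rose in both labels.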

How the data were processed

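RNA-seq of 36 libraries gave the data. The authors deposited raw counts, whole numbers of reads for each Ensembl gene identifier, and the submitters' processing notes name HTSeq and mm10. Aligner, annotation and strandedness are not stated there. Symbols, positions and coding status came from the GENCODE annotation of mm10, which held 54165 of the 54232 identifiers; 67 were not matched, and 0 rows named no gene. All value columns were used (0 left out).

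Counts were filtered with filterByExpr on the 6 groups, scaled by TMM and fitted with edgeR 4.0.16 (glmQLFit, robust) in R 4.3.3, with 1 mean per group over all 36 libraries and Benjamini-Hochberg adjustment over the 12957 genes tested. A gene was called at an adjusted p below 0.05. The filter kept 92 of the 130 genes near Nos1; 88 of these passed it in 6 or more libraries of both labels, 1 (Mapkapk5) in the KO label alone, and Dtx1, Rad9b and Adam1a through libraries of both labels together. Totals of 8953489 to 18482551 counts set the precision, and standard errors cover the spread between libraries. DESeq2 1.42.0 and limma-voom (limma 3.58.1) were alternatives. A second fit had 1 mean per group and library set (12 means). The code was tested on simulated counts.

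No 2 libraries of a group agreed within sampling noise: chi-square per gene ran over 2.08 to 10.8 for pairs within set B, 3.58 to 47.9 within set A and 23.6 to 84.8 across the sets. Same-numbered replicates were not paired, because the labels give no replicate numbers. The genes, role lists, marker lists, library sets and tests were chosen with earlier results of these data known. Named are the genes called between labels, the 4 largest called LPS changes each way, the 5 tested genes on each side of Nos1, up to 2 called genes of each role list, and Selplg, Cmklr1, Coro1c, Hvcn1, Ptpn11, Sh2b3, Aldh2 and Trafd1. Others were named after their values were seen. Alternatives for the library sets and for the libraries with Xist counts were added after seeing the data. Marker sums of other cell types, in CPM over the KO-labelled and then the WT-labelled libraries, ran over 37.9 to 146.4 and 17.2 to 229.1 for neutrophils, 115.3 to 270.0 and 53.0 to 238.5 for erythroid cells and megakaryocytes, 13.2 to 46.8 and 18.2 to 194.0 for stromal cells, 2.87 to 125.7 and 3.89 to 111.8 for endothelial cells, and 7.39 to 63.6 and 7.36 to 71.4 for osteoclasts. Sums for dendritic cells, mast cells and basophils, B cells, and T and NK cells reached at most 12.5, 9.56, 3.09 and 1.42 CPM in the KO label and 11.0, 9.60, 3.31 and 2.06 CPM in the WT label, with Cd3e and Ncr1 at 0 in all groups.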

Additional observations from a re-analysis of the deposited data

Results flagged for a closer look

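A single library stood apart from the other 5 of its group, by Dixon's 95% criterion, in 7 of 228 groups looked at over 38 named genes; chance alone flags about 1 in 20 groups. The causes were not tested. Acacb reached 5.56 CPM in WT-labelled LPS 8h replicate 5, the library with the highest muscle marker sum, with the others at 0.302 to 1.70 CPM. Fbxo21 was at 5.97 CPM in KO-labelled LPS 8h replicate 6, with the others at 7.29 to 8.05 CPM. Fbxw8 was at 38.5 CPM in WT-labelled control replicate 1, a library with Xist counts, with the others at 47.6 to 50.8 CPM. Gatc was at 25.9 CPM in KO-labelled control replicate 6, with the others at 22.1 to 23.2 CPM. Ksr2 was at 0.374 CPM in KO-labelled LPS 8h replicate 5, with the others at 0 to 0.111 CPM. Tpcn1 was at 224.6 CPM in WT-labelled control replicate 6, with the others at 150.1 to 170.0 CPM. Ung was at 1.14 CPM in KO-labelled LPS 8h replicate 4, with the others at 0 to 0.354 CPM.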

How the results depend on the processing

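No paired analysis was possible from the labels, because they give no replicate numbers that the groups share. The numbers used here follow accession order. The library sets hold the same numbers in each group, and Xist stood at 370.3 to 534.3 CPM in WT-labelled replicate 1 of each treatment. Whether same-numbered libraries share an animal or culture was not tested. If they do, the tests used here leave that pairing out. The alternatives without the libraries with Xist counts, and all those for the fit with 1 mean per group and set, were added after seeing the data. Of 1644 log2 fold changes of named genes in refits without 1 library, 1596 kept their direction and their side of the threshold, 39 lost a call, 0 gained one and 9 turned round. Of 1553 under the other alternatives, 1455 kept both, 33 lost a call, 44 gained one and 21 turned round. The 5 genes called over the 3 treatments became 3 with no count filter, 2 without the muscle libraries, 3 without the 6 libraries whose genotype label begins with BMDM, 1 at an absolute log2 fold change of at least 0.5, 33 in set B alone (30.9% of all genes were called there) and 10 with a set term and no Xist libraries (3.83% of all genes), and ranged over 2 to 7 in refits without 1 library. Of all genes, 33 were called with no count filter, 31 without the muscle libraries and 145 without the BMDM-labelled libraries. In single treatments, where 0 were called, the set term gave 2 in controls, 2 at 2 h and 4 at 8 h. Without the Xist libraries it gave 3, 2 and 4, beside 106, 10 and 278 of all genes. Set A alone gave 1 in each treatment, beside 7, 9 and 7 of all genes in controls, at 2 h and at 8 h. Set B alone gave 15, 12 and 31 beside 10.8%, 10.7% and 31.2% of all genes. Leaving out the muscle libraries gave 1 in controls, beside 17 of all genes. Set B alone also called differences between the LPS responses, 2 at 2 h and 12 at 8 h (1.15% and 16.7% of all genes). Library totals alone gave 59 genes for LPS at 2 h in the KO label (56.1% of all genes). Genes called in both sets were 4 with no count filter and 4 with DESeq2, and 2 to 4 without 1 library, while the 14 differences between sets were 9 with no count filter. Some signs turned round, those of called LPS changes as well as those of small ones. With library totals alone the 8 h LPS log2 fold changes became -0.0186 for Selplg, -0.82 for Hvcn1, -0.0855 for Ptpn11, -0.25 for Wsb2 and -0.47 for Fbxw8 in the KO label, and -0.51 for Hvcn1, -0.0082 for Ptpn11, -0.26 for Wsb2 and -0.42 for Fbxw8 in the WT label. Hvcn1, Wsb2 and Fbxw8 were called lower on that scale in both labels. Hvcn1 at 8 h in the KO label, 0.02 and not called, was -0.0262 with no count filter, -0.0895 with limma-voom, -0.0151 with only the groups compared, -0.0355 with a set term, -0.0352 with a set term and no Xist libraries, -0.50 in set B alone, -0.0796 without the BMDM-labelled libraries, and -0.13 to 0.13 without 1 library. Pebp1 at 8 h in the KO label was 0.0751 in set B alone and -0.0641 to 0.0301 without 1 library. Between the labels, Ksr2 was 0.22 in set A alone, Vsig10 was -0.41 in set B alone, -0.10 without the BMDM-labelled libraries and -0.0409 with a set term and no Xist libraries, and Med13l was -0.0001 to 0.0935 without 1 library. The causes were not tested. Depth limits the scarce genes: Acacb, Ksr2 and Ung after LPS rest on few counts per library.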
